A study of Mus musculus with 9 samples.

Results

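Nuclear-encoded genes of the mitochondrial respiratory chain were followed in single-nucleus RNA sequencing (sNuc-seq) of the mouse heart. A gene was a member if its symbol began with Ndufa, Ndufb, Ndufc, Ndufs, Ndufv, Sdha to Sdhd, Uqcr, Cox4i, Cox5, Cox6, Cox7, Cox8 or Atp5, and 99 of the 23747 genes in the tables met this rule. The members comprised 37 subunits of complex I, 4 of complex II, 8 of complex III, 20 genes of complex IV, 18 of complex V, and 12 assembly factors (8 for complex I with Ndufaf symbols and 4 for complex II with Sdhaf symbols). Together they held 958977 unique molecular identifiers (UMIs, one per captured transcript), or 0.711% of all UMIs, from 73 for the pseudogene Cox5b-ps to 32077 for Atp5b. The subunits that the mitochondrial genome encodes were not analysed here, since the tables held 0 mitochondrial symbols. Atp5o and Atp5o.1 share a symbol in the annotation, so how their reads were divided is uncertain.

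The study asked how myocardial ischemia-reperfusion (I/R) altered cardiac cells and what Shexiang Baoxin Pill (SBP, MUSKARDIA in the labels), given beforehand, changed in this. Hearts of 9 C57BL/6 wild-type mice were used, 3 per group. Sham mice were given vehicle by gavage over 7 days and had the needle passed without tying the artery. I/R mice had the same vehicle and then ligation of the left anterior descending artery (LAD) lasting 30 min, with 24 h of recanalization, and SBP mice had the pill solution over 7 days in place of vehicle, then the identical ligation and recanalization. All mice were therefore gavaged and operated, and the tissue came from below the ligation. Each library was 1 mouse. P-values between groups below rest on 3 mice per group, with 1 estimate of the spread shared by the 3 groups. P-values between cell types compare the types across all 9 mice.

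The respiratory chain passes electrons from NADH through complex I and from succinate through complex II to ubiquinone, then through complex III and cytochrome c to oxygen at complex IV, and complex V uses the resulting proton gradient to make ATP. Cardiac muscle depends on this pathway more than most tissues, and striated muscle uses its own isoforms of several small complex IV subunits. Most subunits are nuclear genes, whose promoters are known to bind NRF1, GABP (an ETS factor), YY1 and the ERR receptors. The mRNAs are translated in the cytosol, so a nucleus holds only the part not yet exported.

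The 9 tables held 49171 nuclei, with 4576 to 6418 nuclei and 10329520 to 18205985 UMIs per sample and a median of 1540 to 2031 UMIs per nucleus. These are fewer nuclei than the study counts after its quality control, and the others were not analysed here. Of 48881 distinct barcodes, 290 (0.593%) occurred in more than 1 sample. The doublet caller marked 85 nuclei (0.173%), too few for it to be taken as having worked, and these were removed. By marker genes the remaining 49086 nuclei fell into 14123 fibroblasts, 13460 endothelial cells, 10531 cardiomyocytes, 9563 myeloid cells, 102 Schwann cells, 201 nuclei of smooth muscle or pericytes, and 771 T and 335 B lymphocytes, the names standing for nuclei that resemble the type. Cell types were rebuilt here and may differ from those of the study. Of 10531 cardiomyocytes, a subcluster of 931 nuclei led by Spp1 came to 96.5% from I/R replicate 1. That mouse had 1071 cardiomyocytes, so this subcluster held most of them. Cardiomyocyte results are given with and without the subcluster where it changes a call.

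Promoters were read first, because the members share regulators. RefSeq windows of GRCm38.p6 from 250 bases before to 50 bases after the transcription start were matched for 81 members. On either strand, the NRF1 letters GCGCANGCG were found in 24 of them (29.6%), against 7.03% of all 27025 genes with a window. The ETS letters CCGGAAG were in 22 (27.2%, against 9.93%) and the YY1 letters AAGATGGCG in 8 (9.88%, against 1.64%), while the ERR letters TNAAGGTCA were in 3 (3.7%, against 1.43%). Among 9949 genes with a window that were expressed enough to be tested in cardiomyocytes, the shares were 15% for NRF1, 19.9% for ETS, 3.61% for YY1 and 0.915% for ERR. Either the NRF1 or the ETS letters were present in 39 members (48.1%, against 15.5% of all genes), and both in 7, namely Atp5k, Cox6a1, Sdhaf3, Uqcr11, Atp5l, Sdhd and Atp5h. The share with either among the genes tested in cardiomyocytes is not given here, nor a background share with both. Each set of letters alone was more frequent among those tested genes than among all genes. CCAAT was about as frequent in members (43.2%) as in all genes (41.1%), and TATAAA was in 11.1% against 15.7%. Among the genes tested in cardiomyocytes the shares were 42.6% for CCAAT and 9.34% for TATAAA. A match describes letters only, and is no evidence of binding. Matches of different motifs may share bases.

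Below are the 120 bases before the RefSeq start for members whose values carry the results that follow, each 5′ to 3′ on the coding strand of GRCm38.p6. Ndufs6, Ndufa8, Ndufb10 and Ndufa11 are complex I subunits with low values after I/R, Sdha is a catalytic subunit that was called in no cell type, and the widely expressed isoform Cox6a1 stands beside the muscle isoforms Cox7a1 and Cox8b. Capitals mark the NRF1 letters on either strand, the ETS letters in Cox6a1 (read from the other strand) and the CCAAT letters of the opposite strand in Cox7a1. Cox6a1 holds the CCAAT letters as well, on the strand shown, and there they are left in lower case.
Ndufs6, chr13:73328483-73328602, minus strand: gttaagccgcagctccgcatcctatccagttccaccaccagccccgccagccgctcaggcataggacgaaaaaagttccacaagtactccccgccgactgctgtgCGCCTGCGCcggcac
Ndufa8, chr2:36049339-36049458, minus strand: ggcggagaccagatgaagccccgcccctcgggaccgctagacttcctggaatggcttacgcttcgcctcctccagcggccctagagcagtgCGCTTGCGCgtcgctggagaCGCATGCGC
Ndufb10, chr17:24724424-24724543, minus strand: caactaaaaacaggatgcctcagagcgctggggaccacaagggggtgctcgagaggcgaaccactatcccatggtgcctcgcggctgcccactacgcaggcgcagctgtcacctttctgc
Ndufa11, chr17:56717642-56717761, plus strand: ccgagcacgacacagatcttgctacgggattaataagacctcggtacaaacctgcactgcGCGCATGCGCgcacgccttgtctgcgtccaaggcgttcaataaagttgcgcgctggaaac
Sdha, chr13:74350241-74350360, minus strand: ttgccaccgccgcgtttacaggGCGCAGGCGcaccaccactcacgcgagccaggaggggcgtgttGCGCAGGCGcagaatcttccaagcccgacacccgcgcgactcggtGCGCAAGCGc
Cox6a1, chr5:115348959-115349078, minus strand: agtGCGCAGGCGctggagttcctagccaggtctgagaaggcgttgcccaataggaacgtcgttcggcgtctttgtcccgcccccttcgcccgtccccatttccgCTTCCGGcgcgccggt
Cox7a1, chr7:30184051-30184170, plus strand: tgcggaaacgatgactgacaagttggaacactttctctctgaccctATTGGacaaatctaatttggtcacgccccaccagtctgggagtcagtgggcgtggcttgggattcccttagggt
Cox8b, chr7:140900447-140900566, minus strand: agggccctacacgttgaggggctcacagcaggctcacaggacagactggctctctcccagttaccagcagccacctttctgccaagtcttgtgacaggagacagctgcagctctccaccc
The Sdha window shown holds 3 NRF1 matches, the Ndufa8 window 2, the Ndufa11 window 2 that share bases, and the Ndufs6 window 1. Neither the NRF1 nor the ETS letters stand whole in those of Ndufb10, Cox7a1 and Cox8b. Ndufb10 is among the 24 members with the NRF1 letters, since a match in its longer window crosses the transcription start, where the bases shown end.

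Members took a smaller share of the transcripts after I/R, and SBP mice had shares like those of I/R mice. In endothelial cells the 99 members held 1.04%, 1.38% and 1.36% of UMIs in the 3 sham mice, 0.744%, 0.556% and 0.957% in the I/R mice, and 0.643%, 0.79% and 0.64% in the SBP mice. Every I/R and every SBP mouse lay below every sham mouse there. Fibroblasts had 0.67%, 0.891% and 0.745% in sham, 0.508%, 0.401% and 0.568% in I/R, and 0.514%, 0.445% and 0.486% in SBP, again without overlap with sham. Myeloid cells had 0.713%, 0.994% and 0.889% in sham, 0.515%, 0.404% and 0.638% in I/R, and 0.555%, 0.492% and 0.493% in SBP, with the same separation. In cardiomyocytes the shares were 0.798%, 1.01% and 0.84% in sham, 0.578%, 0.585% and 0.868% in I/R, and 0.581%, 0.646% and 0.732% in SBP. Here I/R replicate 3 lay within the sham range, and the other I/R mice and all SBP mice lay below it. I/R replicate 3 had the highest share among the I/R mice in each of these 4 types, and I/R replicate 2 the lowest in 3 of them. T cells (1.23% ± 0.324 in sham and 0.742% ± 0.11 in I/R, SD, n = 3) had a lower mean share after I/R as well.

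**Figure D1:**
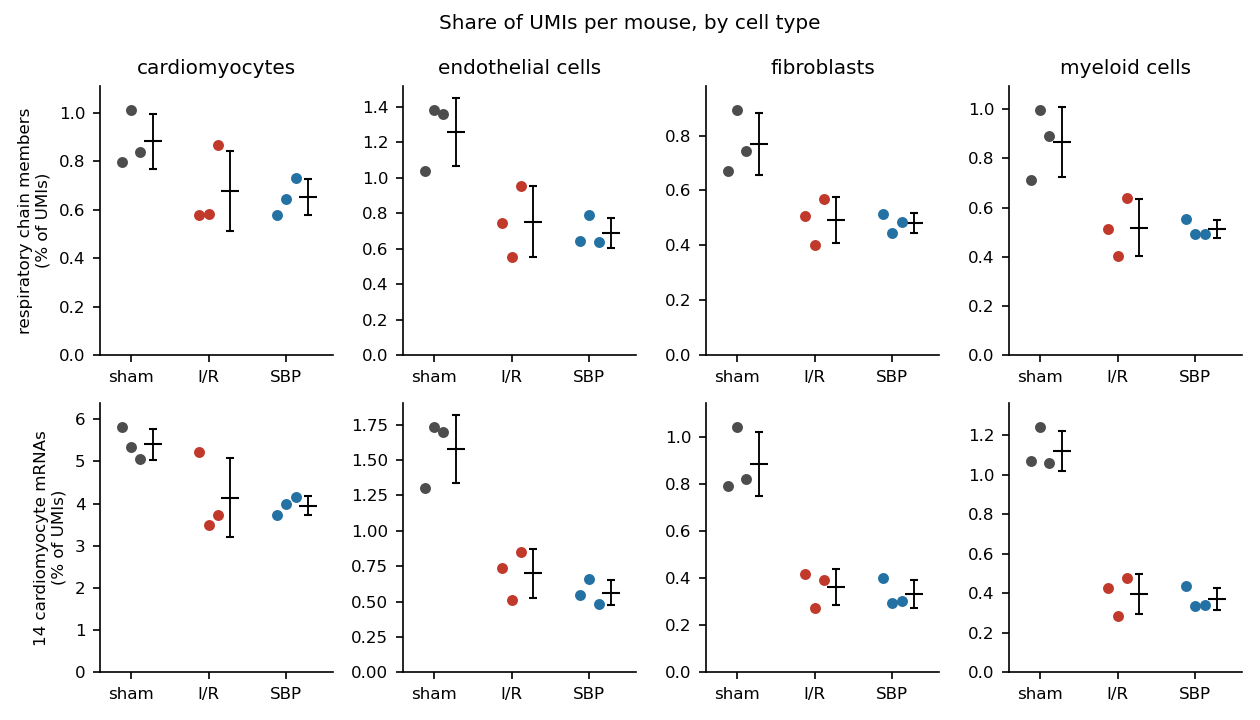
Percent of UMIs (vertical axes from 0) held by the 99 members (upper row) and by 14 cardiomyocyte mRNAs (lower row) in 4 cell types, with 1 point per mouse and the mean ± SD of each group (n = 3). Endothelial means of the members were 1.26% in sham, 0.752% after I/R and 0.691% with SBP, and in cardiomyocytes 1 I/R mouse (0.868%) lay among the sham mice.

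The mixture of clusters within a type differed between groups. Of the myeloid nuclei, a cluster led by F13a1, Mrc1 and Cd163 made up 91% in sham and 27.3% in I/R, while a cluster led by Lilr4b and Adam8 made up 1.71% and 65.9%. In SBP mice these made up 36.8% and 56.1%. Fibroblasts of a cluster led by collagen genes with Tnc went from 0.246% to 17.9%, and most sham cardiomyocytes (93.4%) and most I/R cardiomyocytes (72.3%) were in different clusters. The members' share was therefore also read within clusters that all groups fill. In the F13a1 and Mrc1 myeloid cluster it was 0.882% ± 0.139 in sham, 0.55% ± 0.134 after I/R and 0.515% ± 0.00217 with SBP (SD, n = 3), without overlap between sham and the other groups. The main fibroblast cluster, led by Abca8a and Htra3, had 0.768% ± 0.112, 0.48% ± 0.105 and 0.5% ± 0.00231, also without overlap. In the largest endothelial cluster, led by Adgrl4 and Flt1, the shares were 1.52% ± 0.0712, 0.886% ± 0.21 and 0.842% ± 0.102. In an endothelial cluster led by Reln and Mmrn1 they were 0.883% ± 0.0898, 0.496% ± 0.148 and 0.515% ± 0.0861. The endothelial cluster led by Tmem108 and Npr3 overlapped between sham (0.749%, 1.2% and 1.25%) and I/R (0.622%, 0.505% and 0.869%). A cardiomyocyte cluster led by Pde4dip and Nexn held 6.63% of sham and 72.3% of I/R cardiomyocytes. Its shares were 0.909%, 1.46% and 1.1% in sham and 0.541%, 0.585% and 0.87% in I/R, without overlap. SBP mice had 0.579%, 0.65% and 0.735% there. The cluster held 281 nuclei in sham and 2359 in I/R. A member-rich cardiomyocyte subcluster led by Mb, described below, held 104 sham nuclei, and its part in these shares was not tested. The other cardiomyocyte cluster was read in I/R replicates 1 and 2 (0.588% and 0.812%), which overlapped sham (0.791%, 1% and 0.82%). It held 903 I/R nuclei in all. The Spp1-led subcluster, mostly from I/R replicate 1, held 898 I/R nuclei, with 0.584% of its UMIs from members. The subcluster led by Gm31251 and Mhrt, which held most sham cardiomyocytes, had 8 I/R nuclei. How far the Spp1-led subcluster sets the I/R values of this cluster was not tested.

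For single genes, UMIs were summed per mouse and cell type, scaled to CPM (a gene's UMIs relative to the library total) with trimmed-mean factors, and tested on log2(CPM + 1) with limma over all genes. Calls required a Benjamini-Hochberg adjusted p no larger than 0.05 together with a log2 fold change beyond 0.25 in either direction. This scale understates the change of low genes.

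In cardiomyocytes 0 of the 95 members tested were called in I/R against sham, where 110 of all 12910 genes (0.852%) were called, 88 (0.682%) higher and 22 (0.17%) lower. At an unadjusted p under 0.05 there were 48 members, all lower, against 7.27% of all genes that were lower at that level, and limma voom called 0 members with 47 under 0.05. The members' log2 fold changes had a median of -0.46, against -0.03 for all genes, and 93 of 95 were negative. All I/R mice were below all sham mice for 33 of the 95 members, against 8.75% of all genes. Leaving out I/R replicate 3, the mouse within the sham range, gave 9 called members, and leaving out I/R replicate 1 gave 2. Leaving out the subcluster that came mostly from I/R replicate 1 (chosen after seeing the data) gave 1. That step removes most cardiomyocytes of this mouse, so it is close to leaving the mouse out.

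Ndufs6, a small complex I subunit (chr13:73319838-73328542 in GRCm38, overlapping Mrpl36 on the other strand), had the smallest p in cardiomyocytes. Its level was 51.2, 64.4 and 42.5 CPM in sham, 23.8, 25.2 and 31.9 CPM in I/R, and 32.8, 23.5 and 31.5 CPM in SBP. The I/R and SBP mice were all below the sham mice and overlapped each other. Its log2 fold change in I/R against sham was -0.93 (SE 0.204, limma adjusted p = 0.0624), and 3 of the 4 next smallest p-values also belonged to accessory subunits of complex I. Ndufb10, an accessory subunit of the membrane arm (chr17:24722060-24724478), had 82.9, 97.1 and 78 CPM in sham against 53.3, 33.8 and 60.8 CPM in I/R, with no overlap and a log2 fold change of -0.83 (limma adjusted p = 0.106). Ndufc1 had 43.5, 58.6 and 45 CPM in sham and 24.8, 24.9 and 36.7 CPM in I/R. Ndufb9 had 65.1, 87.6 and 68.1 CPM in sham and 29.2, 34.2 and 57.9 CPM in I/R. For both genes the lowest sham mouse was above the highest I/R mouse, with limma adjusted p-values of 0.107 and 0.127. Uqcr11, the smallest subunit of complex III, had 80.3, 139 and 94.7 CPM in sham and 56.9, 50.5 and 74.4 CPM in I/R, again separated, with a limma adjusted p of 0.143.

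The core and catalytic genes of cardiomyocytes, given here with Cox4i1, which is neither, varied in their values, and none was called. Sdha, which carries the FAD of succinate dehydrogenase, had 235, 211 and 281 CPM in sham and 198, 194 and 278 CPM in I/R. These groups overlapped (log2 fold change -0.13, SE 0.2, limma adjusted p = 0.804). Ndufs1, the iron-sulfur subunit of the complex I electron input arm, had 173, 167 and 217 CPM in sham and 141, 125 and 218 CPM in I/R, overlapping too. Atp5a1, the alpha subunit of the ATP synthase head, had 299, 339 and 313 CPM in sham and 189, 190 and 322 CPM in I/R. For both genes I/R replicate 3 stood inside or above the sham range, and the other I/R mice stood below it. Atp5a1 had a log2 fold change of -0.48, beside -0.45 for Atp5b (the catalytic beta subunit), -0.53 for Cox4i1, -0.63 for Uqcrfs1 and -0.78 for Ndufs8, against -0.24 for Ndufs1. By complex, the median log2 fold change in cardiomyocytes was -0.52 for complex I, -0.08 for complex II, -0.51 for complex III, -0.55 for complex IV, -0.46 for complex V and -0.29 for the assembly factors.

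In endothelial cells 19 of 95 members fell after I/R and 0 rose, where 3.27% of all genes were called, 1.83% higher and 1.44% lower. The median over the members was -0.72 on the log2 scale, and 52 members separated the I/R from the sham mice completely, against 10.6% of all genes. Cox7a2, a small subunit of complex IV in most tissues, had the smallest p, with 118, 142 and 148 CPM in sham and 70.4, 60 and 86.6 CPM in I/R. It fell by 0.91 on the log2 scale (SE 0.161, limma adjusted p = 0.0128). Ndufa13, a complex I subunit also known as GRIM-19 (it overlaps Yjefn3 on the same strand, so its reads could be divided), had 134, 167 and 165 CPM in sham against 77.2, 66.4 and 101 CPM in I/R and fell by 0.94 (limma adjusted p = 0.0176). Ndufa11, a membrane-arm subunit of complex I, went from 87.8, 106 and 82 CPM to 44.8, 35.8 and 54.7 CPM (limma adjusted p = 0.0196). Uqcrc1, a core subunit of complex III, was at 168, 226 and 226 CPM in sham and at 89.1, 87.6 and 145 CPM in I/R. All sham mice were above all I/R mice for these 4 genes.

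The endothelial count rested on single mice. It was 0 without sham replicate 2, 1 without sham replicate 3, 0 without I/R replicate 2 and 51 without I/R replicate 3. It was 11 without I/R replicate 1 and also 11 without SBP replicate 3, which enters only through the shared estimate of the spread. With cell types taken from marker scores in place of clusters it was 5, and with only the 6 mice compared it was 9.

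Fibroblasts gave 43 of 95 members lower and 0 higher, where 11.5% of all genes were called, 6.92% higher and 4.57% lower. Ndufs6 led again, with 69.5, 108 and 76.5 CPM in sham, 37.2, 33.2 and 43.4 CPM in I/R and 41.8, 32.6 and 36.7 CPM in SBP, so that each sham mouse was above each I/R and each SBP mouse. It fell by 1.12 on the log2 scale in I/R (SE 0.191, limma adjusted p = 0.00332). Ndufa8, a twin-cysteine subunit of complex I, had 35.4, 47.9 and 41.8 CPM in sham and 16.6, 17.3 and 23 CPM in I/R (fell by 1.1, limma adjusted p = 0.00333). Ndufb2 had 53.2, 55.8 and 48 CPM in sham and 27.7, 19 and 27.8 CPM in I/R. The groups were separate for both. The members' median was -0.66, and 63 members lay lower in all I/R mice than in any sham mouse, against 12% of all genes. Only Atp5g2, one of several genes for the c subunit of the ATP synthase ring, lay higher in all I/R mice (67.1, 51.4 and 52.3 CPM, against 46.5, 43.9 and 39.1 CPM in sham), and it was not called (log2 fold change 0.38, limma adjusted p = 0.147). The fibroblast count was 17 without sham replicate 2, 14 without sham replicate 3 and 13 without I/R replicate 2.

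Myeloid cells gave the most calls, with 52 of 93 members lower and 0 higher, where 17.6% of all genes were called, 9.73% higher and 7.89% lower. Ndufb10 had 76, 94.3 and 72.1 CPM in sham and 48, 32.6 and 40.7 CPM in I/R, and fell by 0.99 on the log2 scale (SE 0.196, limma adjusted p = 0.00483). Uqcrq, a small subunit of complex III next to cytochrome b, had 122, 176 and 157 CPM in sham and 76.7, 79.8 and 89.3 CPM in I/R, and fell by 0.87 (limma adjusted p = 0.00556). Neither gene showed overlap between the groups. The members' median was -0.7 and 58 members separated the groups downwards, against 15.1% of all genes. Without sham replicate 2 the count was 12, without sham replicate 3 it was 23, and without I/R replicate 2 it was 19. In whole-heart sums, where fewer cells of a type and less RNA per cell cannot be told apart, 51 of 99 members were lower in I/R and 0 higher, against a background of 11.4% of all genes called (5.98% higher, 5.39% lower). The I/R mice lay below all sham mice there for 69 members, against 16.1% of all genes. The count of 51 was 31 with scaling to library size alone, 3 without sham replicate 3, 5 without I/R replicate 2, 7 without sham replicate 2, 27 without sham replicate 1, 32 without I/R replicate 1 and 81 without I/R replicate 3.

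**Figure D2:**
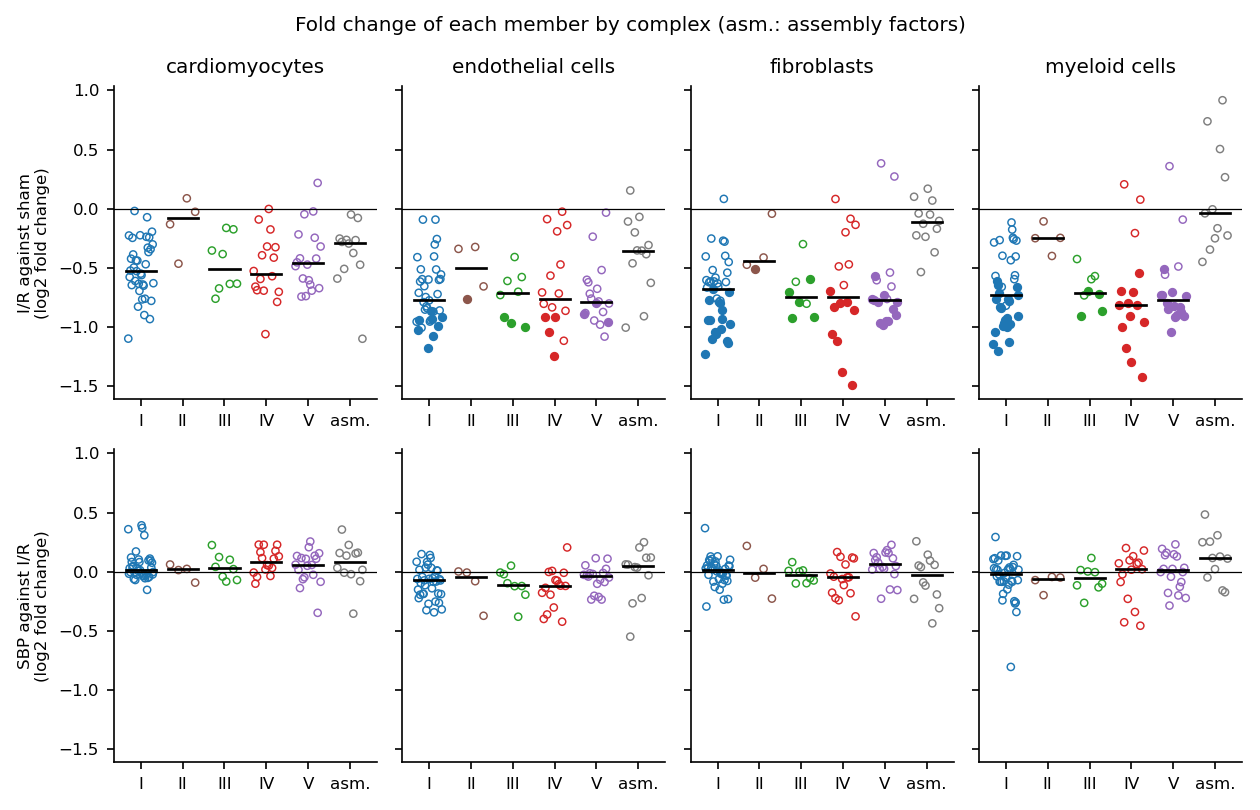
Log2 fold change (vertical axis) of each tested member for I/R against sham (upper row) and SBP against I/R (lower row), by complex in 4 cell types, with called members filled and a bar at each median. In the upper row the medians of complexes I, III, IV and V lie between -0.46 and -0.81 and every filled point is below 0, and in the lower row no point is filled.

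Of 93 members tested in endothelial cells, fibroblasts and myeloid cells alike, 14 were called lower in all 3 types: Ndufa13, Ndufb2, Ndufb7, Ndufb9 and Ndufv3 of complex I, Uqcrc1, Uqcrq and Uqcr11 of complex III, Cox5b, Cox6a2 and Cox7a1 of complex IV, and Atp5a1, Atp5h and Atp5o.1 of complex V. A further 28 were called in 2 types and 16 in 1. These counts were 15.1%, 30.1% and 17.2% of the members, and of all 10312 genes tested in the 3 types 1.02%, 2% and 6.82% were called lower in 3, 2 and 1. The 37 members called in both fibroblasts and myeloid cells were 86% of the fibroblast list and 71.2% of the myeloid list. Over all genes, the 274 called lower in both were 45.8% and 31.9% of the respective lists. The 3 types came from the same hearts, so these comparisons share their mice and are not independent of each other. Ndufb9 (it overlaps Gm49356 on the same strand), whose levels in endothelial cells were 123, 142 and 160 CPM in sham and 63.1, 45.3 and 102 CPM in I/R, fell by 1.07 in endothelial cells, 1.02 in fibroblasts and 1.12 among myeloid cells on the log2 scale.

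By complex, the calls in endothelial cells, fibroblasts and myeloid cells numbered 8, 16 and 22 of 37 for complex I, and 3, 5 and 4 of 8 for complex III. For complex IV they were 4 of 16, 9 of 16 and 12 of 15 tested genes, and for complex V 3, 12 and 14 of 18. Complex II had 1, 1 and 0 of 4 called, the called gene being Sdhb, its iron-sulfur subunit. The assembly factors of complexes I and II had 0 of 12, 0 of 12 and 0 of 11 called. Of all genes, 1.44%, 4.57% and 7.89% were called lower in these types. At such shares, few or no calls in classes as small as complex II and the assembly factors do not set them apart from all genes. They had fewer calls than the other complexes, and whether they differ from these was not tested. Some assembly factors, such as Sdhaf1, also had low levels. The class medians of the assembly factors were -0.35, -0.11 and -0.04, while those of complexes I, III, IV and V lay between -0.68 and -0.81.

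In all, 35 of the 93 members were called in none of the 3 types, and they include genes of high level. Ndufs4, an accessory subunit whose loss is known to impair complex I, had 166, 174 and 154 CPM in endothelial sham nuclei and 152, 120 and 143 CPM after I/R. In fibroblasts it was at 173, 162 and 170 CPM in sham and at 122, 111 and 154 CPM in I/R, all lower than in sham (log2 fold change -0.4, limma adjusted p = 0.117). Sdha in fibroblasts was at 130, 147 and 158 CPM in sham and at 97.9, 85.5 and 135 CPM in I/R, where 1 I/R mouse exceeded 1 sham mouse. Ndufs1 overlapped between the groups in each type, with log2 fold changes of -0.3, -0.27 and -0.12. Ndufs3 and Ndufs7 of the complex I core, Uqcrfs1 (the Rieske protein), Uqcrc2, Sdhc and Sdhd also belong to the 35. Values above 0 were few and not called. Sdhaf1, an assembly factor of complex II, had 3.3, 6.86 and 10.1 CPM in myeloid sham nuclei and 8.93, 20.5 and 10.8 CPM in I/R, which overlapped (log2 fold change 0.92, limma adjusted p = 0.131).

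**Figure D3:**
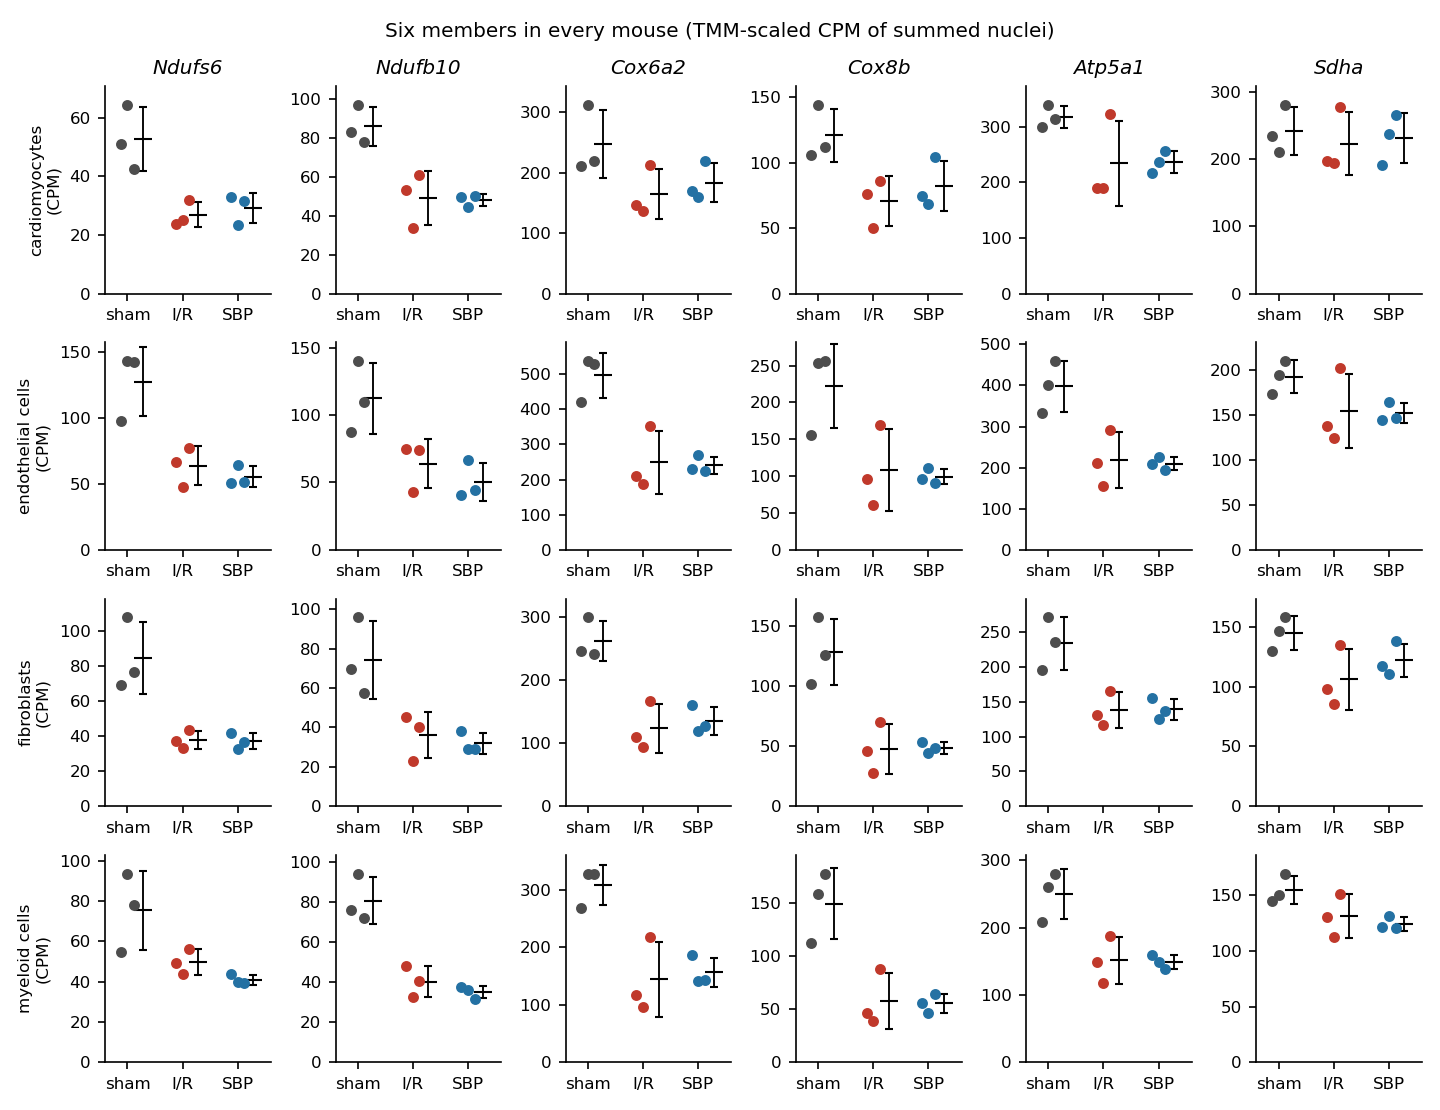
Level in CPM (linear axes from 0) of Ndufs6, Ndufb10, Cox6a2, Cox8b, Atp5a1 and Sdha in each of the 9 mice, by group (columns of points) and cell type (rows), with the mean ± SD of each group (n = 3). Ndufs6 in fibroblasts lies at 69.5 to 108 CPM in sham and at 33.2 to 43.4 CPM in I/R, while Sdha in cardiomyocytes overlaps between all groups.

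Complex IV has pairs of isoforms. Cox6a2, Cox7a1 and Cox8b are the forms found in heart and skeletal muscle, and Cox6a1, Cox7a2 and Cox8a are their widely expressed partners. Cox6a2 (chr7:128205435-128206387, overlapping Itgad on the other strand) had 247, 300 and 242 CPM in fibroblasts of sham mice, 110, 93.8 and 167 CPM in I/R and 161, 119 and 128 CPM in SBP. It fell by 1.12 on the log2 scale after I/R (SE 0.206, limma adjusted p = 0.00508), by 1.04 in endothelial cells and by 1.18 in myeloid cells. Its partner Cox6a1 had 29.7, 23.8 and 27.1 CPM in fibroblasts of sham mice and 31.8, 22.4 and 31.9 CPM in I/R, overlapping, with a log2 fold change of 0.08 (95% interval -0.32 to 0.48). Cox8b (chr7:140898945-140900446) had 102, 157 and 126 CPM in fibroblasts of sham mice and 45.6, 27.6 and 69.6 CPM in I/R. Every I/R mouse was below every sham mouse, and the gene fell by 1.49 (limma adjusted p = 0.00644). In myeloid cells it went from 112, 158 and 177 CPM to 46.3, 38.9 and 87.5 CPM and fell by 1.42 (limma adjusted p = 0.00535). Its partner Cox8a had 36.3, 37.1 and 38.1 CPM in fibroblasts of sham mice and 37.6, 30.4 and 37.4 CPM in I/R, a log2 fold change of -0.08 (95% interval -0.43 to 0.26). In endothelial cells Cox8b was not called (log2 fold change -1.11, limma adjusted p = 0.0998) and Cox8a was at -0.02.

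The third pair is Cox7a1 and Cox7a2. Cox7a1 (chr7:30184144-30186078) had 132, 208 and 211 CPM in endothelial sham nuclei and 81.8, 51.8 and 101 CPM in I/R. It fell by 1.24 there, by 1.38 in fibroblasts and by 1.29 in myeloid cells (limma adjusted p = 0.0303, 0.0211 and 0.0242). Its partner Cox7a2 fell too in endothelial cells, as above, and in myeloid cells (by 0.7, limma adjusted p = 0.0257). In fibroblasts Cox7a2 separated the groups and was not called (limma adjusted p = 0.0567). Whether the fold changes of a muscle isoform and its partner differ was not tested.

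Expressed as the muscle isoform's part of the UMIs of its pair, Cox8b in fibroblasts was 77.2% ± 3.56 in sham, 55.8% ± 8.78 after I/R and 61.1% ± 3.34 with SBP (SD, n = 3). In myeloid cells it was 77.3% ± 4.31, 54.4% ± 7.66 and 62.6% ± 6.11. The sham mice were above all others in both types. Cox6a2 in myeloid cells made 93.7% ± 0.898 of its pair in sham, 84.9% ± 3.33 after I/R and 89.7% ± 3.1 with SBP, and Cox7a1 in cardiomyocytes 46.4% ± 6.7, 34.1% ± 7 and 33.4% ± 3.6. Sham and I/R mice overlapped for Cox8b in cardiomyocytes (60.8% to 70.6% against 53.3% to 66%) and for Cox6a2 in cardiomyocytes (82.5% to 90.5% against 78.3% to 84.6%). They overlapped also for Cox7a1 in endothelial cells (52.8% to 59.4% against 46.3% to 53.9%) and in myeloid cells (44.4% to 61.8% against 40.7% to 53%), and not for the other pairs and types. These shares were chosen for description after the gene values were seen and were not tested. UMIs here count 3′ ends of transcripts, so no correction for length enters.

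**Figure D4:**
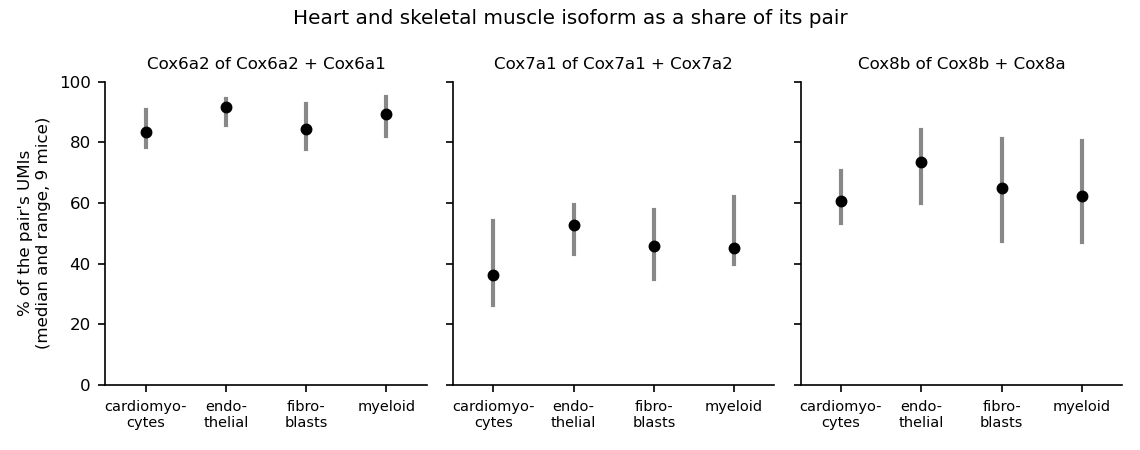
Muscle isoform as percent of the UMIs of its pair (vertical axis from 0 to 100) for Cox6a2, Cox7a1 and Cox8b in 4 cell types, with the median (point) and range (line) over all 9 mice. The median for Cox6a2 is 83.5% in cardiomyocytes and 91.5% in endothelial cells, and that for Cox7a1 is lowest in cardiomyocytes at 36.3%.

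Transcripts known from cardiomyocytes were also lower in the other types. A list of 14 cardiomyocyte mRNAs (including Ttn, Myh6, Tnnt2 and Mb) had 11 genes called lower in endothelial cells, 12 in fibroblasts and 13 among myeloid cells after I/R, with median log2 fold changes of -1.2, -1.39 and -1.41, and 1 called lower in cardiomyocytes (median -0.56). Its summed share of the UMIs in fibroblasts was 0.792% to 1.04% in sham, 0.275% to 0.418% after I/R and 0.294% to 0.401% with SBP, and in cardiomyocytes 5.06% to 5.8%, 3.48% to 5.21% and 3.72% to 4.15%. All 14 were expressed enough to be tested there and had negative log2 fold changes in those 3 types. Within the F13a1 and Mrc1 myeloid cluster the list held 1.11% ± 0.147 in sham and 0.464% ± 0.153 in I/R (SD, n = 3). Its part in the fall of the members was not tested. Of the cytosolic ribosomal protein genes, 50 of 85 were called higher and 1 lower in fibroblasts (6.92% of all genes were called higher), and 25 of 82 higher and 1 lower in myeloid cells (9.73%). In endothelial cells 2 of 85 were higher and 1 lower (1.83% of all genes higher), and in cardiomyocytes 0 of 84 were called. The nuclear-retained RNAs Malat1, Neat1, Meg3 and Kcnq1ot1 had 1 called gene, higher in myeloid cells, and none in the other 3 types.

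Whether the I/R effect differed between cell types was tested directly. The I/R effect in cardiomyocytes differed from that in endothelial cells for 0 of 94 members (0.0352% of all genes were called), from that in fibroblasts for 0 of 94 (2.23%), and from that in myeloid cells for 0 of 93 (5.51%). At an unadjusted p under 0.05 there were 13, 10 and 10 members, and limma voom also called 0 with 16, 13 and 10 at that level. The median differences were 0.21, 0.17 and 0.22 on the log2 scale, the cardiomyocyte effect being the less negative one. A member called in fibroblasts and not in cardiomyocytes was thus not shown to differ between them.

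SBP against I/R called 0 members in each of the 4 types, and 0 of all genes (0%) were called in cardiomyocytes, endothelial cells, fibroblasts and myeloid cells alike. At an unadjusted p under 0.05 limma had 0 members in cardiomyocytes, endothelial cells and fibroblasts and 2 in myeloid cells, and limma voom 0, 0, 0 and 3. The median log2 fold changes of the members were 0.04 in cardiomyocytes, -0.07 in endothelial cells, 0.01 in fibroblasts and -0.002 among myeloid cells. The 95% intervals of single members reached a median of 0.468, 0.475, 0.436 and 0.471 to either side. Ndufb5, a complex I subunit, had the smallest p in cardiomyocytes, with 36.4, 33.6 and 59.6 CPM in I/R and 55.6, 54.8 and 55.1 CPM in SBP. The SBP mice lay close together and inside the wide I/R range, and the log2 fold change was 0.39 (95% interval -0.05 to 0.83, limma adjusted p = 1). Next by p were Ndufaf8 (log2 fold change -0.35), Ndufb6 (0.37), Atp5o (-0.35) and Ndufaf3 (0.36), whose intervals all included 0.

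Among the non-muscle types only myeloid cells had members with intervals beyond 0. Ndufc2, a membrane-arm subunit of complex I (it overlaps Gm16053 on the same strand), had 25.6, 14.2 and 27.3 CPM in I/R and 11, 12.6 and 12.2 CPM in SBP, against 24.8, 31.7 and 32.5 CPM in sham. All SBP mice were below all I/R mice (log2 fold change -0.8, 95% interval -1.38 to -0.23, limma adjusted p = 0.999). Cox8a in myeloid cells had 39.7, 43.7 and 52.9 CPM in I/R and 36.9, 33.7 and 28 CPM in SBP, also separate (log2 fold change -0.46, 95% interval -0.87 to -0.04). In endothelial cells the smallest p-values were those of Cox8a (-0.42), Ndufaf3 (-0.55) and Ndufv3 (-0.32), and in fibroblasts those of Ndufaf2 (0.26), Ndufa11 (-0.29) and Atp5g2 (-0.23). All SBP mice lay below all I/R mice for 1 member in cardiomyocytes and 3 in myeloid cells, where 2.54% and 5.17% of all genes did so, and above them for 2 members in myeloid cells (3.92% of all genes).

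SBP against sham used the same sham mice as I/R against sham, so the resemblance of both is not independent evidence. In cardiomyocytes 0 of 95 members were called (0.124% of all genes were, 0.116% higher and 0.00775% lower), 37 had an unadjusted p under 0.05, all lower (6.48% of all genes were lower at that level), limma voom called 0 with 37 at that level, and 56 lay lower in all SBP mice than in any sham mouse, against 11.9% of all genes. With only the 6 mice compared, 9 members were called, and 1 without I/R replicate 1. Endothelial cells had 26 lower (2.2% of all genes were called, 0.647% higher and 1.56% lower), fibroblasts 36 lower (6.02%, 3.86% higher and 2.16% lower) and myeloid cells 46 lower (12.3%, 6.84% higher and 5.51% lower), and 0 rose in any type. All SBP mice lay below all sham mice for 79 members in endothelial cells (12.9% of all genes), 69 in fibroblasts (11.4%) and 67 in myeloid cells (15.2%). Cox7a2 in endothelial cells stood at 65.9, 75.9 and 63 CPM in SBP, below the 118 to 148 CPM of sham, and fell by 0.98 on the log2 scale (limma adjusted p = 0.0107). Ndufs6 in fibroblasts fell by 1.15 (limma adjusted p = 0.00437), beside 1.12 in I/R, and Ndufb10 in myeloid cells by 1.17 (limma adjusted p = 0.00241), beside 0.99. The cardiomyocyte mRNA list had 10, 11 and 13 of 14 genes lower in these 3 types, and ribosomal protein genes had 0 higher in endothelial cells, 13 in fibroblasts and 8 among myeloid cells.

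These counts also rested on single mice. In endothelial cells the 26 became 0 without sham replicate 2, 1 without sham replicate 3, 3 without SBP replicate 1, 16 without SBP replicate 2 and 0 without SBP replicate 3. They became 44 and 49 without I/R replicates 2 and 3, which enter only through the spread, 60 with only the 6 mice compared and 6 with marker scores. In fibroblasts the 36 became 10 to 11 without sham replicate 2, sham replicate 3, SBP replicate 2 or SBP replicate 3, and in myeloid cells the 46 became 10 to 15 without the same mice.

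Nuclei of cardiomyocytes held more member transcripts than those of endothelial cells, fibroblasts and myeloid cells. With all members summed there were 41.5 UMIs per cardiomyocyte nucleus, 14.5 per endothelial, 12.5 per fibroblast and 11.9 per myeloid nucleus, and the cardiomyocyte value was 3.25 times the mean of these 3 types (range over the 9 mice 2.63 to 3.78). Such ratios are not corrected for the UMIs of all genes per nucleus, which were also higher in cardiomyocytes, as given below. The 201 nuclei of smooth muscle or pericytes are not in the mean of the 3 types, and they held more UMIs of some members than cardiomyocytes did, with 2050 against 1500 UMIs per 1000 nuclei for Atp5b and 2170 against 808 for Cox4i1. They include a deep cluster with a median of 12977 UMIs per nucleus. Relative to all transcripts, Atp5b had 308 against 265 CPM and Cox4i1 326 against 143 CPM, pooled over mice. Cytosolic ribosomal protein genes stood at 1.2 times (0.932 to 1.45) and the cardiomyocyte mRNA list at 25 times (11.4 to 30.8). Complex II, which also belongs to the citric acid cycle, had the highest ratio of the complexes at 5.9, followed by complex V at 3.16, complex I at 3.13, complex III at 3.03 and complex IV at 2.88. Among 87 annotated members with at least 1000 UMIs the ratio ran from 1.57 for Ndufa2 to 10.7 for Ndufaf4, an assembly factor of complex I, followed by Sdhc (8.91), Cox7b (7.08) and Ndufs3 (6.15). After Ndufa2 the lowest ratios were those of Ndufa1 (1.59), Uqcr11 (1.63), Atp5e (1.64), the assembly factor Ndufaf7 (1.65) and Ndufs6 (1.66).

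**Figure D5:**
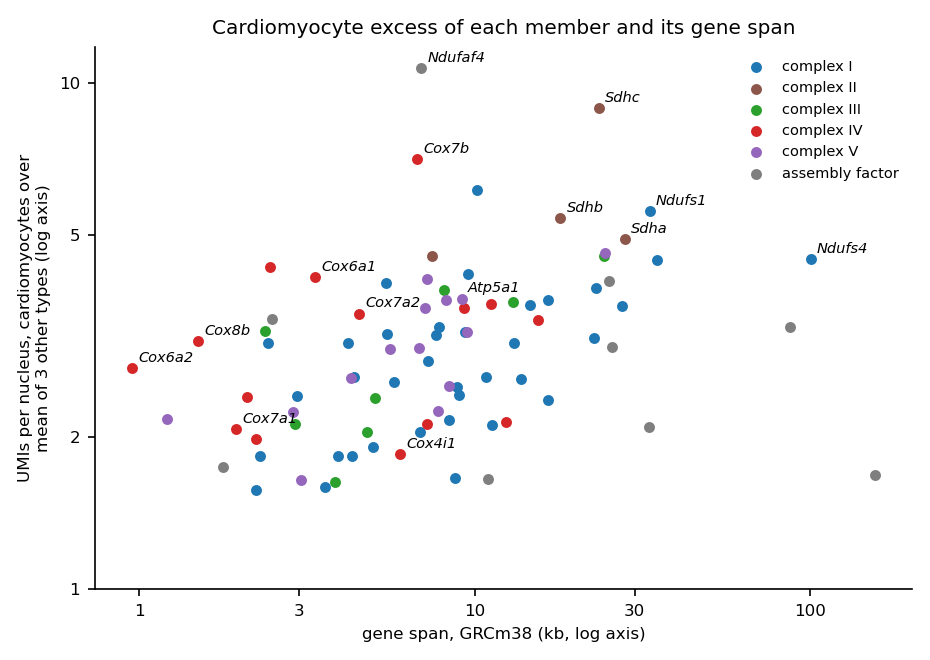
UMIs per cardiomyocyte nucleus over the mean of endothelial cells, fibroblasts and myeloid cells (vertical log axis, median of mice) against gene length in kb (horizontal log axis), 1 point for each of 87 members, coloured by complex. The ratios run from 1.57 to 10.7, with Ndufaf4 and Sdhc at the top.

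Longer genes tended to have higher ratios (Spearman rho 0.43 across 87 members, which share the same libraries and are not independent). Members longer than the median of 7.67 kb had a median ratio of 3.4 and the others 2.59.

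Cardiomyocyte nuclei held a median of 4435 UMIs of all genes against 1276.5 to 1785 in the other 3 types, and levels relative to all transcripts were compared as well. In limma against fibroblasts 87 of 97 members were called (76.2% of all genes were), 83 higher and 4 lower in cardiomyocytes (36.1% and 40.1% of all genes), and against myeloid cells 83 of 97 (76.6%), 80 higher and 3 lower (39.1% and 37.5%). Against endothelial cells 69 of 97 were called (77.4%), 51 higher and 18 lower (39.8% and 37.6%). With library size alone 20 members were called higher and 55 lower against endothelial cells, 46 and 21 against fibroblasts and 40 and 25 against myeloid cells. The members' median log2 difference then moved from 0.31 to -0.37 against endothelial cells, from 0.82 to 0.21 against fibroblasts and from 0.77 to 0.11 against myeloid cells. It turned only against endothelial cells. A change of scaling shifts all genes of a comparison together, so this turn is not particular to the members. Shares over all genes under library size scaling are not given beside these counts. With trimmed-mean factors Ndufs1 was 1.52, 1.64 and 1.69 log2 units higher in cardiomyocytes than in the 3 types, and Sdhb 1.57, 1.86 and 1.4. Cox7b, an X-linked subunit of complex IV, was 1.56, 2.06 and 2.05 higher. The largest limma adjusted p among these 9 differences was 2.19e-09. Under library size scaling the differences were smaller and still called, at 0.81, 1.02 and 1.00 for Ndufs1, 0.87, 1.23 and 0.71 for Sdhb and 0.86, 1.44 and 1.35 for Cox7b.

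The muscle isoforms were called higher in cardiomyocytes than in fibroblasts and myeloid cells, and not than in endothelial cells. Against fibroblasts Cox6a2 was 0.87, Cox8b 1.04 and Cox7a1 0.50 log2 units higher, and against myeloid cells 0.74, 0.89 and 0.39. Cox6a2 differed by 0.04 log2 units from endothelial cells (limma adjusted p = 0.723), Cox8b by 0.15 (limma adjusted p = 0.267), and Cox7a1 was 0.39 lower in cardiomyocytes. Under library size scaling Cox7a1 was -0.11 against fibroblasts and -0.30 against myeloid cells, and against endothelial cells Cox6a2 was 0.66 and Cox8b 0.56 lower in cardiomyocytes, and their partners Cox6a1 and Cox8a were 1.00 and 0.97 higher with trimmed-mean factors. In sham mice alone, and scaled within each type, Cox6a2 stood at 211 to 312 CPM in cardiomyocytes, 242 to 300 in fibroblasts, 269 to 328 in myeloid cells and 422 to 537 in endothelial cells. As part of its pair, Cox6a2 had a median of 83.5% in cardiomyocytes (78.3% to 90.5% over 9 mice) and of 91.5% in endothelial cells (85.7% to 94.2%). Cox7a1 had 36.3% in cardiomyocytes and 52.8% in endothelial cells, and was lower in cardiomyocytes in 9 of 9 mice. Pooled over mice, the cardiomyocyte mRNA Mb had 914, 440 and 443 CPM in endothelial cells, fibroblasts and myeloid cells, against 478 in cardiomyocytes. Myl3 had 628, 320 and 315 against 459 CPM, and Cox6a2 334, 164 and 169 against 202 CPM. Ttn was far higher in cardiomyocytes, with 1350, 702 and 761 against 15000 CPM. The source of these transcripts in non-muscle nuclei was not tested.

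Some isoforms marked other cells. Ndufa4l2, a hypoxia-inducible relative of Ndufa4, had 299 UMIs per 1000 nuclei in smooth muscle cells with pericytes, 23.2 in fibroblasts and 5.7 in cardiomyocytes, and 0.44 to 2.06 log2 units lower levels in cardiomyocytes than in the 3 large types. Cox4i2, the oxygen-sensitive isoform of Cox4, had 239 UMIs per 1000 nuclei in smooth muscle cells with pericytes and 3.23 in cardiomyocytes. In smooth muscle cells with pericytes they rest on 60 and 48 UMIs in 201 nuclei. Cox7b2, an isoform known from testis, had 332 UMIs in cardiomyocytes (31.5 per 1000 nuclei), against 1.49, 1.13 and 0.941 per 1000 in endothelial cells, fibroblasts and myeloid cells. Its levels in cardiomyocytes were 5.31, 10.8 and 5.81 CPM in sham, 5.15, 3.61 and 4.49 CPM in I/R and 3.82, 5.96 and 3.97 CPM in SBP, all I/R mice being just below all sham mice. Cox7b2 was singled out after its values were seen.

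A small group of cardiomyocyte nuclei was rich in member transcripts. The 271 nuclei of a subcluster led by Mb, Fth1, Rplp1 and Chchd10 had a median of 3.5% of UMIs from members (2.39% to 3.63% over the 9 mice), while subclusters led by Ankrd1 and Pdk4 (5086 nuclei, mostly I/R and SBP) and by Gm31251 and Mhrt (4138 nuclei, 4067 from sham) had 0.578% and 0.712%. The same 271 nuclei had 1.59% of UMIs from ribosomal protein genes, pooled over mice, against 0.277% and 0.249%, and 7.8% from nuclear-retained RNA, against 14.8% and 11.6%. They came from all groups, with 104 from sham, 89 from I/R and 78 from SBP. Without them the members called in I/R against sham stayed at 0, with a median log2 fold change of -0.45. Members took part in defining these clusters, so the difference is a description.

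The known regulators of these genes gave a mixed picture after I/R. Of 13 regulators none was called in cardiomyocytes. Esrrb and Esrrg, receptors of the ERR family, fell by 1.33 and 1.02 in endothelial cells (limma adjusted p = 0.0153 and 0.0337, 1.44% of all genes called lower), by 0.97 and 0.86 in fibroblasts (limma adjusted p = 0.0358 and 0.0254, 4.57%), and among myeloid cells by 1.83 and 1.33 (limma adjusted p = 0.00138 and 0.00239, 7.89%). Neither was called in cardiomyocytes (log2 fold changes -0.24 and -0.38). Esrrg had 2360, 1790 and 1970 CPM in cardiomyocytes of sham mice against 285, 316 and 232 CPM in endothelial cells. The list of cardiomyocyte mRNAs was lower in the same 3 types, as given above, and its part in these falls was not tested. Ppargc1b, a coactivator of mitochondrial biogenesis, fell in fibroblasts (by 0.88, limma adjusted p = 0.00916), and Hif1a, the hypoxia-inducible factor, rose in fibroblasts (by 1.16) and in myeloid cells (by 1.55). Ppargc1a in cardiomyocytes had 1880, 826 and 1070 CPM in sham and 1140, 1410 and 1080 CPM in I/R, overlapping (log2 fold change 0.02). In endothelial cells it had 233, 150 and 138 CPM in sham and 88.2, 98.8 and 107 CPM in I/R, in fibroblasts 177, 104 and 94.6 CPM against 50.2, 67.1 and 66.2 CPM, and in myeloid cells 320, 116 and 110 CPM against 56.9, 79.8 and 69.8 CPM. The I/R mice were all lower than the sham mice in these 3 types, and Ppargc1a was called in none of them (limma adjusted p = 0.244, 0.0651 and 0.0803). NRF1, GABP and TFAM, through Nrf1, Gabpa and Tfam, were called in none of the 4 types. Esrra, the third ERR gene, was called in none of the 4 types either. It had 84.2, 80.6 and 64.2 CPM in myeloid sham nuclei and 100, 123 and 86.7 CPM in I/R, all higher, and it overlapped in endothelial cells with 36.7, 39.1 and 33.8 CPM against 32.4, 38.4 and 35.2 CPM. Per nucleus, cardiomyocytes held 15.8 times as many UMIs of the 13 regulators as the mean of the other 3 types (median of the mice).

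Of 13 carriers and partners of the chain, 0 were called in cardiomyocytes (0.852% of all genes were), 1 in endothelial cells (3.27%), 4 in fibroblasts (11.5%) and 4 among myeloid cells (17.6%), all lower. Others had values above 0, such as Etfa, a carrier of electrons from fat oxidation, with 231, 331 and 445 CPM in sham and 324, 544 and 687 CPM in I/R cardiomyocytes. These overlapped, and Etfa was not called (log2 fold change 0.61, limma adjusted p = 0.377). Ckmt2, the mitochondrial creatine kinase of striated muscle, fell in the 3 types (by 1.41, 1.71 and 1.83), and Cycs (cytochrome c), Etfb and the heart-type ATP carrier Slc25a4 fell in fibroblasts and myeloid cells. Of 22 assembly factors outside the rule, Cox17 and Sco2, both in copper delivery to complex IV, fell in endothelial cells (1.44% of all genes were called lower). In fibroblasts 0 were called (4.57% of all genes lower) and in cardiomyocytes 0 (0.17%). Only Cox14 of 19 tested fell in myeloid cells, where 7.89% of all genes were called lower, so that call does not set these factors apart.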

How the data were processed

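sNuc-seq tables of 9 hearts were used, 3 each of sham, I/R and SBP, grouped by the labels. The authors deposited, per nucleus, the natural log of 1 plus UMIs scaled to 10000. The submitters' processing notes name Cell Ranger 4.0, STAR, Seurat 3.2.0 and GRCm38, and the study's methods name other versions of Cell Ranger and Seurat, so the versions behind the tables are uncertain. Those methods describe down-sampling of reads and removal of mitochondrial genes, which bear on depth and on which subunits could be measured.

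Values were turned back into whole UMIs (in every sample at least 99.9% of values lay within 0.1 UMI of a whole number). Nuclei were clustered with scanpy 1.11.5 and Leiden, and clusters were named from marker genes. UMIs were summed per mouse and cell type, scaled with trimmed-mean factors, and tested with limma 3.58.1 (trend, robust) on log2(CPM + 1) over all genes, keeping genes that reached the CPM of 10 UMIs in the median library in at least 3 samples, with sums of at least 20 nuclei. All 3 groups shared 1 estimate of the spread. P-values were adjusted by Benjamini-Hochberg over all genes. limma voom, other scalings, filters and pseudocounts, marker-score cell types, a replicate block and each mouse left out were the alternatives. The fits were tested on simulated data. Intervals of fold changes are 95%, and the precision is limited by 3 mice per group and by 10329520 to 18205985 UMIs per sample. Replicate numbers were not treated as pairing the mice, except in the replicate block.

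Members named were those called (up to 15 per comparison, by smallest p), the 5 smallest p in cardiomyocytes and 3 elsewhere, muscle isoforms with their partners, catalytic subunits and the 10 most abundant. The members and lists were chosen with earlier results of these data known. The cell types, clusters and their names were rebuilt here.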

Additional observations from a re-analysis of the deposited data

How the results depend on the processing

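Among the values of single named members under the alternatives, 16167 kept their direction and side of the threshold. Another 973 kept their direction and were no longer called, and 209 kept it and became called. Direction changed in 663 values called in neither the main nor the alternative setting, and in 6 called in at least 1 of them. Of the counts and shares recomputed under the alternatives, 349 stayed within the limits set for them and 46 moved. With only the 6 mice compared, the members called in cardiomyocytes for SBP against sham were 9, and in endothelial cells 9 for I/R against sham and 60 for SBP against sham. Cell types assigned by marker scores gave 1 in cardiomyocytes for I/R against sham and 5 and 6 in endothelial cells. Whole-heart sums gave 31 with library size scaling. Without the cardiomyocyte subcluster of 1 mouse, chosen after seeing the data, 1 member was called in cardiomyocytes for I/R against sham. This subcluster held most cardiomyocytes of that mouse, I/R replicate 1.

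Leaving out 1 mouse at a time gave, for I/R against sham, 0 to 9 members in cardiomyocytes, 0 to 51 in endothelial cells, 13 to 62 in fibroblasts, 12 to 51 in myeloid cells and 3 to 81 in whole-heart sums. For SBP against sham the ranges were 0 to 1, 0 to 49, 10 to 47 and 10 to 55 in the 4 types, and for SBP against I/R 0 throughout. No clear pairing by replicate number was seen: same-numbered mice correlated at -0.319 to 0.296, and 1, 2, 3 and 3 of 9 mice in the 4 types correlated best with their own number. With 3 mice per group, such correlations cannot show that a pairing is absent. With the replicate block, endothelial cells had 10 members called for I/R against sham and 8 for SBP against sham, and no other count of called members moved by over 1.5 times.

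Against endothelial cells, library size scaling turned Cox6a2 to -0.66, Cox7a2 to -0.26 and Cox8b to -0.56 log2 units, and marker-score cell types put Cox7a1 at 0.002. Library size scaling put Cox7a1 at -0.11 against fibroblasts and -0.30 against myeloid cells. The causes were not tested. The adjusted p of Ndufs6 in cardiomyocytes for I/R against sham ran from 0.0421 with marker scores to 0.244 without I/R replicate 2. With 3 mice per group, values as large as -1.11 log2 units (Cox8b in endothelial cells, I/R against sham) were not called.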
